A study of Mus musculus with 45 samples.

Results

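Metformin given in the drinking water was compared with no metformin in the livers of mice on a high-fat diet (HFD) for 6 weeks, with 3 libraries of polyadenylated RNA in each group, out of 45 libraries in the whole study. All mice were wild-type C57BL/6J, 24 weeks old and starved overnight when the liver was taken, and the HFD of these mice began at 18 weeks of age. Metformin was dosed to reach 270 mg/kg of lean body mass per day. The labels give 8 or 18 weeks of age for its start without saying which applied to a group, and they do not give the sex of the mice. The 6 libraries were chosen by their labels alone, and none of them received insulin. The mice on HFD without metformin are called basal below. Chow and 16-week HFD mice with and without metformin, again 3 libraries a group, served for comparison, and the HFD of the 16-week group began at 8 weeks of age. Groups are described as holding 3 mice or more. Which animal a library came from is not labelled, so p values measure the spread between libraries, estimated over the groups of all 45 libraries. Of 23227 genes in the deposited count tables, 14067 passed the filter on low counts.

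Metformin is a biguanide that is taken up by hepatocytes and leaves them through the exporter MATE1, encoded by Slc47a1. It inhibits complex I of the mitochondrial respiratory chain, raises AMP and activates the AMP-activated protein kinase (AMPK) downstream of the kinase LKB1, encoded by Stk11. Its known effect in the liver is less glucose production, for which inhibition of complex I, of the mitochondrial glycerophosphate dehydrogenase Gpd2 and of fructose bisphosphatase by AMP have all been described, some of them without a change in transcription.

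In livers on 6-week HFD, 271 genes were higher and 175 lower with metformin than without (edgeR quasi-likelihood test with Benjamini-Hochberg adjustment, false discovery rate below 0.05). That is 446 of 14067 genes or 3.17%, with 1.93% higher and 1.24% lower. Among the higher genes were Mup8 and Mup19, members of a near-identical gene family, the uncharacterised gene E030024N20Rik and the metallothionein gene Mt2. Among the lower genes were other members of such families, Mup10, Mup9 and Gm10012, and genes without copies, such as the transcription factor gene Cebpb and the antiproliferative gene Tob1. Of 74 ribosomal protein genes 19 were higher, as were 5 of 36 subunits of complex I and 8 of 39 subunits of complexes II to V, and fewer of each after removal of a trend with gene length. None of 23 genes of glucose production was called. In a list of this size 0 calls cannot be told apart from the 3.17% over all genes. At an unadjusted p below 0.05 there were 2886 of the 14067 genes, and counts at that p below stand beside this share. The median log2 fold change over all genes was 0.00, 7096 genes (50.4%) had a positive one, and 127 called genes differed by more than 2-fold. Basal and metformin libraries did not overlap in 4585 of all 14067 genes (32.6%). A lack of overlap given for a single gene below stands beside that share. The count of called genes depended on single libraries. It was 138 without basal library 1 and 149, 201 and 245 without metformin library 2, 1 and 3. For metformin on 6-week HFD DESeq2 called 693 genes, and a fit of these 6 libraries alone called 751.

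Several properties of the libraries differed between the 2 groups. The basal libraries held 35.1 to 50.3 M counted reads and the metformin libraries 19.2 to 23.7 M. On 16-week HFD depth was alike, at 20.98 to 23.95 M without and 21.08 to 21.58 M with metformin. On chow it was 19.02 to 45.74 M without and 19.15 to 21.58 M with metformin. Longer genes were lower with metformin. Across genes, the Spearman correlation of the log2 fold change with exon length was -0.46, as a description over genes that are not independent. Against the mean of all groups, the correlation with exon length was 0.19, 0.10 and 0.15 in the basal libraries and -0.28, -0.28 and -0.39 in the metformin libraries. The 9 metformin libraries of the 3 diets lay between -0.61 and -0.12, and the 36 others between -0.21 and 0.30. The median log2 fold change was 0.27 in the decile of genes with the shortest exons (60 to 1135 bases), of which 129 were called higher and 12 lower. It was -0.24 in the longest decile (6217 to 104320 bases), with 5 called higher and 54 lower. After a smooth trend with exon length was removed from each library, 215 genes (1.53%) were called, 120 higher and 95 lower. Of the 446 genes, 177 were also called then, in the same direction. These 177 were 39.7% of the first set and 82.3% of the second. The part of the length trend in single results below was not tested, and calls lost after its removal are named as such.

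**Figure D1:**
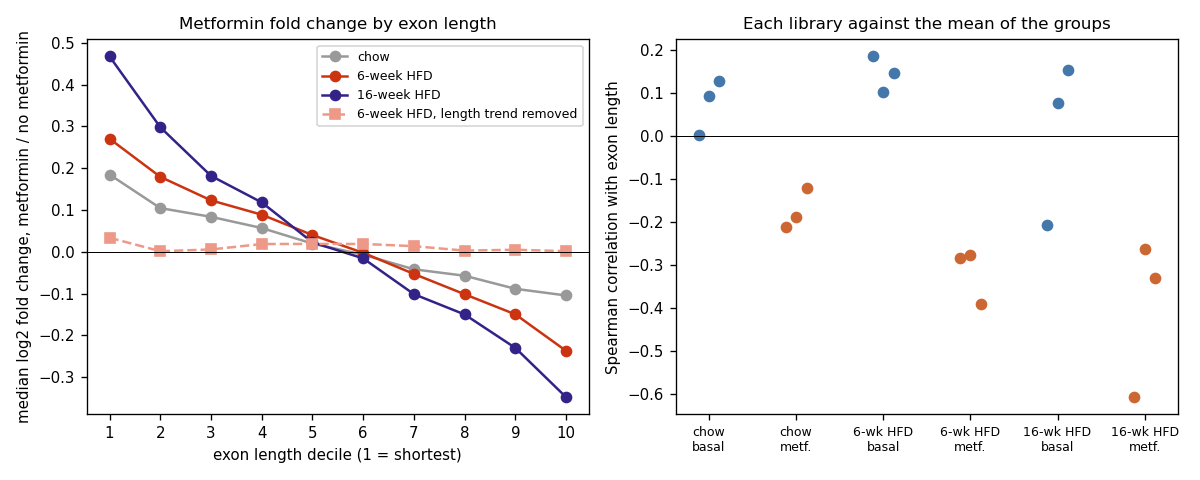
Left, median log2 fold change of metformin over no metformin in deciles of genes ordered by exon length, on chow, 6-week HFD and 16-week HFD, and on 6-week HFD after removal of the length trend. On 6-week HFD it went from 0.27 in the shortest to -0.24 in the longest decile. Right, Spearman correlation across genes between exon length and the deviation of each library from the mean of the groups (1 point per library). The 3 metformin points on 6-week HFD lie between -0.39 and -0.28 and the 3 basal points between 0.10 and 0.19.

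The tissue was checked by marker genes. The summed level of 7 hepatocyte markers was 89630 to 95910 CPM (counts scaled to library size, with TMM factors) in the basal and 94790 to 111700 CPM in the metformin libraries. Skeletal muscle genes stood apart in the basal group. The sum of 15 muscle markers was 2325, 295.9 and 6.46 CPM in basal libraries 1, 2 and 3 and 189.6, 37.4 and 41.4 CPM in metformin libraries 1, 2 and 3. All 15 had a negative log2 fold change, with a median of -3.30, and 1 of them, the muscle actinin gene Actn3, was called. The sum of 19 markers of pancreatic acinar cells was 190, 64.1 and 13.4 CPM in the basal and 86.1, 22.7 and 22.1 CPM in the metformin libraries, with a median log2 fold change of -1.46 and no call by edgeR, at an unadjusted p below 0.05 for 0 of 19. DESeq2 called 1 of them, Amy2a5, which was at 0 CPM in all but 1 of these libraries. The endothelial markers had a median of -0.33 with no call by edgeR or DESeq2, and 2 of 8 had an unadjusted p below 0.05. The part of these tissues in single results was not tested, except where a value without a library is given below. In bulk liver RNA, fewer cells of a type and less RNA per cell cannot be told apart.

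Many of the called genes share sequence with another gene, which matters because reads of 40 to 50 bases cannot always be placed between copies. The labels do not say which libraries had which read length, and the part of read length in the changes below was not tested. In reference transcripts, 763 tested genes shared at least 20% of their 40-base words with another gene, and 84 of them (11%) were called, 78 higher and 6 lower. Of the 11988 genes that shared under 5%, 294 (2.45%) were called, 138 higher and 156 lower. Among called genes at a mean of 5 CPM or more whose groups did not overlap, 13 of the 15 largest higher changes and 3 of the 15 largest lower changes were in genes with at least 20% shared words. These pairs are shown for how little separates such genes. The coding sequence of Cox7c and the processed pseudogene Gm10012 differ at 2 of 192 bases, and those of Gstp1 and Gstp2 at 12 of 633 bases, 6 of them in the first 210. The sequences are those of GENCODE M21 on GRCm38, 5′ to 3′, from the start codon, with the differing bases in capitals. Cox7c lies on the minus strand at chr13:86044816-86046904, Gm10012 on the plus strand at chr17:25901862-25902053, Gstp1 on the minus strand at chr19:4035407-4037985 and Gstp2 on the minus strand at chr19:4040285-4042263.
Cox7c: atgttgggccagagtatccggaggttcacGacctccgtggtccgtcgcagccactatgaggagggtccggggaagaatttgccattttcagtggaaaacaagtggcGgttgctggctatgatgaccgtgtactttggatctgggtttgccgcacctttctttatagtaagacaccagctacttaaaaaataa
Gm10012: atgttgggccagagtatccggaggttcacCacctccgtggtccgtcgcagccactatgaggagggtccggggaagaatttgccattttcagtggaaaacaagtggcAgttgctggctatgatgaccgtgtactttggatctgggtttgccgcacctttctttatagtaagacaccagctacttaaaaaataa
Gstp1: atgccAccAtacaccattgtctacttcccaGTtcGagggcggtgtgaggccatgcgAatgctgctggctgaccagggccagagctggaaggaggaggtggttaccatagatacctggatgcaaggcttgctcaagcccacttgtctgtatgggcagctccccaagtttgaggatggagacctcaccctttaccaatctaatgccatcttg
Gstp2: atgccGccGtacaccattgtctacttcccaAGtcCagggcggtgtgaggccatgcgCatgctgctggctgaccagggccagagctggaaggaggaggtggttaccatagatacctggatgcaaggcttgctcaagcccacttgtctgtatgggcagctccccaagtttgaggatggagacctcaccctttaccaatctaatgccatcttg

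Cox7c and Gm10012 changed in opposite directions. Cox7c encodes a small subunit of cytochrome c oxidase. It was at 80.9, 91.7 and 81.8 CPM in the basal and 202, 211 and 199 CPM in the metformin libraries, without overlap. Its log2 fold change was 1.27 ± 0.13 (adjusted p = 8.68e-08, edgeR). Gm10012 was at 20.5, 13.7 and 12.8 CPM without and at 4.25, 4.51 and 4.36 CPM with metformin, a log2 fold change of -1.84 ± 0.23 (adjusted p = 3.82e-06). The 9 metformin libraries of all diets held 194 to 377 CPM of Cox7c and the 36 others 73.5 to 115 CPM. Gm10012 ran the other way, at 3.91 to 7.17 CPM in the 9 and 9.69 to 24.0 CPM in the 36. The sum of both was 100.4 ± 5.47 CPM (SD, n = 3) without and 208 ± 6.63 CPM (n = 3) with metformin. How reads that fit both copies were counted is not given in the sources used here. The part of read placement in these changes was not tested.

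Gstp1 and Gstp2 encode pi-class glutathione transferases, enzymes of detoxification. Gstp2 was at 12.3, 12.4 and 14.0 CPM without and 58.2, 59.2 and 77.3 CPM with metformin, so the groups did not overlap and the log2 fold change was 2.33 ± 0.43 (adjusted p = 0.00126, edgeR). Gstp1 was at 700, 442 and 550 CPM without and 480, 523 and 723 CPM with metformin, with overlap. The sum of both was 577 ± 130 CPM without and 640 ± 140 CPM with metformin (SD, n = 3 each), a difference smaller than the spread.

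Major urinary proteins, pheromone carriers of the lipocalin family that the liver secretes, had called members in both directions. Mup10 fell from 555, 511 and 531 CPM to 82.4, 63.5 and 111 CPM (log2 fold change -2.64 ± 0.49, adjusted p = 0.00149, edgeR). Mup9 fell from 1999, 1610 and 2943 CPM to 472, 280 and 630 CPM (-2.25 ± 0.55, adjusted p = 0.0173), a call that was lost without basal library 3 or metformin library 1 or 2. Mup8 rose from 9.54, 8.16 and 11.9 CPM to 189, 106 and 304 CPM (4.34 ± 1.05, adjusted p = 0.0167). Mup19 rose from 21.6, 14.7 and 25.2 CPM to 249, 87.8 and 91.6 CPM (2.80 ± 0.63, adjusted p = 0.0101). The calls of Mup8 and Mup19 were lost without basal library 1 or 2, that of Mup8 also without metformin library 3 and that of Mup19 without metformin library 1. All 4 genes share 79% to 100% of their words with other genes. The summed level of 20 Mup genes was 33750, 25960 and 32900 CPM without and 29130, 23140 and 38320 CPM with metformin, so the groups overlapped.

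Other pairs combined a called change at a low member with an abundant copy that was not called. C1rb, a copy of the complement protease gene C1ra, rose from 9.44, 13.4 and 15.3 CPM to 34.7, 35.4 and 34.8 CPM (log2 fold change 1.46 ± 0.18, adjusted p = 3.60e-06, edgeR), while C1ra was at 205 to 235 CPM without and 238 to 271 CPM with metformin. E030024N20Rik is an uncharacterised gene with 55.2% shared words, and the gene it shares them with is not given here. E030024N20Rik rose from 4.40, 5.001 and 4.17 CPM to 72.0, 63.2 and 55.4 CPM (3.81 ± 0.38, adjusted p = 4.87e-08). It had 2.20 to 18.3 CPM in the 36 libraries without metformin of the whole study and 51.4 to 158 CPM in the 9 with it. In another pair both members rose. The glycolytic gene Gapdh rose from 290, 207 and 197 CPM to 410, 464 and 402 CPM (0.88 ± 0.13, adjusted p = 3.68e-05), and its processed copy Gm12070 rose too, from 418, 361 and 355 CPM to 688, 785 and 711 CPM (0.95 ± 0.11, adjusted p = 6.36e-07). The glycolytic gene Eno1 fell from 1.44, 1.47 and 1.46 CPM to 0.28, 0.28 and 0.99 CPM (-1.45 ± 0.36, adjusted p = 0.0205), beside 136 to 152 CPM without and 195 to 222 CPM with metformin for its copy Gm5506 (0.52 ± 0.15, adjusted p = 0.0515). The call of Eno1 was lost without basal library 1 or metformin library 1 or 2.

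Most of the further large higher changes were again in genes with shared words. Gm6682, Ugt2b37, Gm13253, Gm5803, Cd1d2, Srp54a and BC002163 rose with log2 fold changes of 2.62, 1.92, 1.91, 1.61, 1.53, 1.43 and 1.39, and their calls held in each of the 6 fits that left out 1 library. LOC100048884 (2.97) and Beta-s, a beta-globin gene (1.54), rose as well, but neither call held without basal library 1, basal library 2 or metformin library 1, and that of LOC100048884 was also lost without metformin library 2 and with the replicate block (adjusted p = 0.0565). LOC100048884 lies at chr4:61331212-61335128 of mm9, near Mup19 at chr4:61439362-61443258, and both are on the minus strand. It is not part of the sum of 20 Mup genes, and its percentage of shared words is not known. The call of Beta-s was lost after removal of the length trend (adjusted p = 0.0671). The globin gene was at 59.9, 64.9 and 103 CPM without and 328, 154 and 179 CPM with metformin, beside 107 to 125 CPM and 98.4 to 133 CPM for the red cell heme synthesis gene Alas2 (log2 fold change 0.04 ± 0.15).

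**Figure D2:**
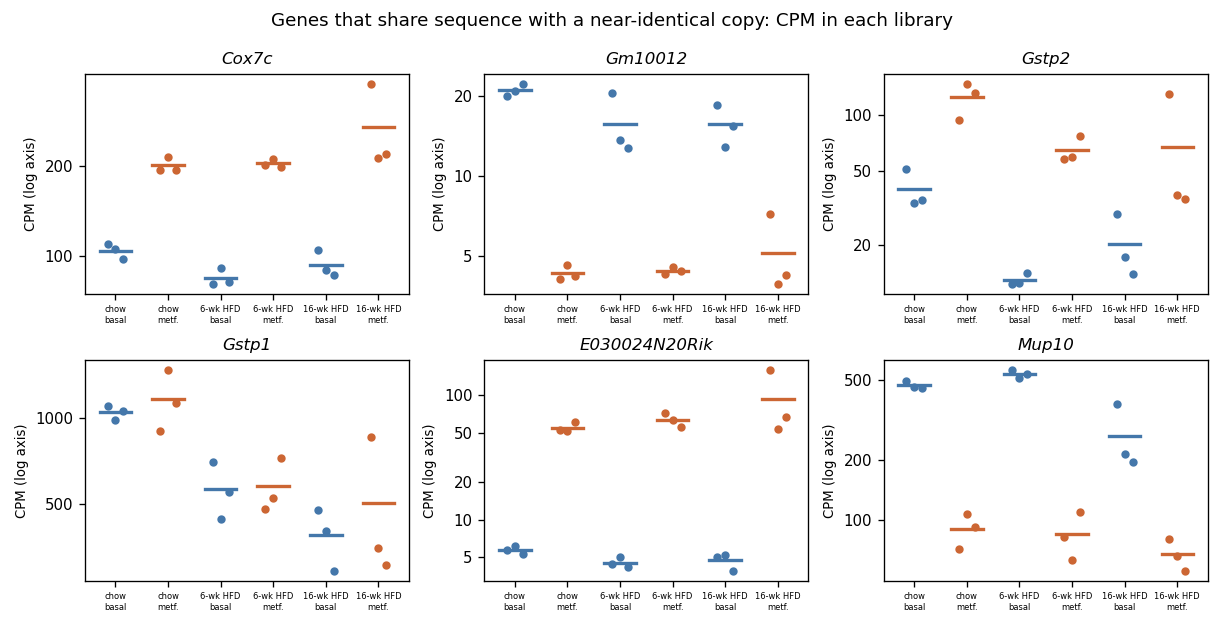
CPM (log axis) of 6 genes that share sequence with another gene, in each library of the 6 basal and metformin groups (points, libraries; lines, means of 3). For E030024N20Rik no copy is named. Cox7c at 194 CPM or more and Gm10012 at 7.17 CPM or less separate the 9 metformin libraries from the 9 basal ones on every diet, and Gstp1 overlaps on 6-week HFD.

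Tomm6, a small subunit of the translocase that imports proteins into mitochondria, had no shared words and was among the clearest lower genes. It fell from 24.6, 28.7 and 25.5 CPM to 9.74, 9.19 and 10.5 CPM, without overlap (log2 fold change -1.42 ± 0.14, adjusted p = 4.87e-08, edgeR). The gene lies at chr17:47823594-47825335 on the minus strand of mm9, and its exons overlap those of Gm14872 on the other strand. Gm14872 was at 1.61 to 2.65 CPM over the 6 libraries. The counts have no strand, so reads of these 2 genes cannot be told apart. The same limit holds for Stk11, Irs2, Srebf1, Bhlhe40, Rpl31 and Gt(ROSA)26Sor below, whose exons overlap a gene on the other strand.

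Metallothioneins bind zinc and copper, and their genes respond to metals, glucocorticoids and oxidative stress. Mt2 (mm9, chr8:96696518-96697467, plus strand) was at 18.5, 19.7 and 13.6 CPM in the basal and 221, 117 and 99.9 CPM in the metformin libraries. All 3 metformin values lay above all basal ones, at 8.48 times the basal mean. Its log2 fold change was 3.08 ± 0.85 (adjusted p = 0.0366, edgeR). The neighbouring gene Mt1 was at 28.4, 42.0 and 43.2 CPM without and 245, 159 and 134 CPM with metformin, a log2 fold change of 2.24 ± 0.67 that missed the threshold (adjusted p = 0.0554), while DESeq2 called both. The call of Mt2 was lost in each of the 6 fits without 1 library, after removal of the length trend (adjusted p = 0.0934) and with a block for the replicate number (adjusted p = 0.052). In the other basal groups Mt2 was higher than in the 6-week HFD basal group, at 61.8 ± 31.0 CPM on chow and 67.4 ± 29.8 CPM on 16-week HFD against 17.2 ± 3.22 CPM (SD, n = 3 each). With metformin it was at 58.5 ± 35.4, 146 ± 65.7 and 96.8 ± 89.6 CPM on chow, 6-week HFD and 16-week HFD. The response of Mt2 on 6-week HFD did not pass the test of its difference from that on chow (3.16 ± 1.14, adjusted p = 0.609) or on 16-week HFD (2.56 ± 1.13, adjusted p = 0.312).

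The promoters of both genes, from 250 bases before to 50 bases after the start in RefSeq (GRCm38.p6), are shown because they hold the core of the metal response element, which the zinc-sensing factor MTF1 binds. Capitals mark matches to TGCACNC or TGCGCNC on either strand. There were 4 matches in Mt2 (plus strand, chr8:94172368-94172667) and 3 in Mt1 (plus strand, chr8:94178839-94179138). At least 1 match was present in 25.7% of 32851 RefSeq promoters of this length, and 3 or more in 1.97%. A match is a description of letters and not of binding.
Mt2: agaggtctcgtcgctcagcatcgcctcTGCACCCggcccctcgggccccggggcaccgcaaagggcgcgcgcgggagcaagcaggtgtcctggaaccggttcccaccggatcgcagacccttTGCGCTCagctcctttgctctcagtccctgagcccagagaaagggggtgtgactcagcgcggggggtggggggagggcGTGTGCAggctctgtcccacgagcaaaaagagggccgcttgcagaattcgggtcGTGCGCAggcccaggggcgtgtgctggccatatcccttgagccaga
Mt1: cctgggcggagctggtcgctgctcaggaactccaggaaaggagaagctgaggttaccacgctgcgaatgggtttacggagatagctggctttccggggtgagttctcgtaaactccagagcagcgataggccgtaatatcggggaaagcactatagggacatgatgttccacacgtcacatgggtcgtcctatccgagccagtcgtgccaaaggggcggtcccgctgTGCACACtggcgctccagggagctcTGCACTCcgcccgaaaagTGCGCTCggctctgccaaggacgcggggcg

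Genes were then read by pathway, in 28 lists. Of 713 list members tested, 50 (7.01%) were called, against 3.17% of all genes, and the ribosome and the respiratory chain held most of them. The count of 50 fell to 15 to 35 in the fits without 1 library and to 21 after removal of the length trend. In 15 lists no member was called. Counts of list members at an unadjusted p below 0.05 stand beside 2886 of 14067 over all genes.

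Protein subunits of the cytosolic ribosome were higher with metformin in 19 of 74 cases and lower in none (25.7% called), with a median log2 fold change of 0.31 against 0.00 over all genes, and 69 positive values. The values ran from -1.23 for Rps27, which was not called, to 0.70 for Rplp2. Rps14 of the small subunit was at 122, 165 and 171 CPM without and 247, 235 and 253 CPM with metformin (log2 fold change 0.68 ± 0.11, adjusted p = 0.000222, edgeR). Rpl31 of the large subunit, at 109, 123 and 126 CPM, rose to 161, 159 and 175 CPM (0.47 ± 0.09, adjusted p = 0.00183). Rpl37 rose from 75.3, 80.6 and 81.4 CPM to 114, 116 and 116 CPM (0.55 ± 0.11, adjusted p = 0.00276). Groups did not overlap in any of these 3 genes. These are short genes with many pseudogene copies: their median exon length was 722 bases against 2815 bases over all genes, and 46 of the 74 had at least 20% shared words. After removal of the length trend 6 were called higher (Rpl21, Rpl31, Rpl37, Rpl7, Rps14 and Rps26) and 1 newly called lower (Rps13), and the median was 0.08. The count was 7 without basal library 1, and 8 without metformin library 2 or 3. The list had medians of 0.23 with metformin on chow and 0.56 on 16-week HFD.

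Subunits of complex I, the target of metformin in the respiratory chain, were higher in 5 of 36 cases and lower in none (13.9%), with a median of 0.25 and 35 positive values. Ndufa1 was at 45.8, 49.9 and 46.0 CPM without and 65.9, 72.8 and 78.9 CPM with metformin (log2 fold change 0.62 ± 0.10, adjusted p = 0.000205, edgeR). Ndufab1, the mitochondrial acyl carrier protein, rose from 50.2, 53.1 and 51.5 CPM to 70.7, 85.0 and 85.4 CPM (0.64 ± 0.12, adjusted p = 0.00175). Ndufb2 rose from 27.3, 38.3 and 33.7 CPM to 44.99, 53.8 and 50.5 CPM (0.59 ± 0.15, adjusted p = 0.0215), a call that was lost without basal library 1, without metformin library 2 or 3 and after removal of the length trend. After that removal Ndufa1 and Ndufab1 were still called higher, Ndufa12 was newly called lower, and the list's median was 0.05. Its median exon length was 666 bases. The count was 2 without basal library 1 or without metformin library 2 or 3.

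In complexes II to V, 8 of 39 subunits were higher and none lower (20.5%), with a median of 0.29, and the lowest value was -0.41 for Atp5k, which was not called. Besides Cox7c, the higher ones were Sdhd of complex II, Uqcrh and Uqcrq of complex III, Cox4i1 and Cox7b of complex IV, and Atp5g1 and Atp5g3 of the ATP synthase. Sdhd rose from 165, 182 and 173 CPM to 226, 248 and 219 CPM (log2 fold change 0.41 ± 0.10, adjusted p = 0.0126, edgeR), and Cox7b from 131, 114 and 103 CPM to 174, 166 and 158 CPM (0.51 ± 0.13, adjusted p = 0.0258). Cox4i1 lost its call with the replicate block (adjusted p = 0.0577). With the length trend removed, Cox7c alone of the 8 was called higher, Atp5k was newly called lower, and the median was 0.08. The count was 1 to 3 in the 6 fits without 1 library. Proteins of the mitochondrial ribosome were higher in 6 of 73 cases and lower in none (8.22%), with a median of 0.21. Without the length trend Mrpl20 alone of the 6 was called higher, and Mrpl53 was newly called lower. Mrpl20 rose from 29.3, 28.1 and 27.3 CPM to 42.2, 43.0 and 42.0 CPM (0.59 ± 0.13, adjusted p = 0.0104). Mrpl9 and Mrpl27 rose by 0.38 ± 0.09 and 0.44 ± 0.12 on the log2 scale (adjusted p = 0.0194 and 0.035), and both calls were lost without the length trend. The count of this list was 1 to 4 in the 6 fits without 1 library. Of 25 genes of ribosome biogenesis, 1 was lower (4%), Utp20 of the small subunit processome, from 30.2, 28.7 and 30.1 CPM to 23.2, 24.0 and 22.2 CPM (-0.36 ± 0.09, adjusted p = 0.0247). It has 8831 exon bases, and its log2 fold change was -0.11 without the length trend, where its call was lost (adjusted p = 0.599). The call was also lost without basal library 1 or 3 or any 1 of the metformin libraries.

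No gene of the metformin transporters or of AMPK was called by edgeR. Of the 3 transporter genes tested, 0 had an unadjusted p below 0.05. The exporter gene Slc47a1 was at 112, 131 and 115 CPM without and 137, 162 and 104 CPM with metformin (log2 fold change 0.18 ± 0.16, adjusted p = 0.564). Among 14 AMPK subunits and upstream kinases, 3 had an unadjusted p below 0.05, against 2886 of 14067 genes tested. DESeq2 called 1 of the 14, the catalytic subunit gene Prkaa1. Prkaa1 was at 16.3, 16.4 and 14.6 CPM without and 11.6, 12.4 and 13.0 CPM with metformin, without overlap (-0.35 ± 0.11, adjusted p = 0.0679 in edgeR). The other catalytic subunit gene, Prkaa2, had 76.2, 76.0 and 71.4 CPM without and 61.9, 69.6 and 59.9 CPM with metformin (-0.22 ± 0.13, adjusted p = 0.336). Stk11 differed by less than the spread (0.09 ± 0.10, adjusted p = 0.627). In the list of mTORC1 inputs and targets, which AMPK restrains, none of 16 was called by edgeR, 5 had an unadjusted p below 0.05, and DESeq2 called 1, Rragd (edgeR -0.96 ± 0.31, adjusted p = 0.0731).

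Genes of glucose production were not called by edgeR or DESeq2 in any of 23 cases (median 0.15, 5 with an unadjusted p below 0.05). Pck1, the gene of cytosolic phosphoenolpyruvate carboxykinase, was at 3737, 3878 and 3142 CPM without and 3314, 3531 and 4176 CPM with metformin (log2 fold change 0.03 ± 0.22, adjusted p = 0.95, edgeR). G6pc, the catalytic subunit of glucose 6-phosphatase, was at 510, 448 and 216 CPM without and 193, 305 and 194 CPM with metformin, and the groups overlapped (-0.76 ± 0.36, adjusted p = 0.225). Fbp1, the gene of the AMP-sensitive fructose bisphosphatase, had 902, 838 and 1102 CPM without and 1057, 1084 and 1157 CPM with metformin (0.21 ± 0.13, adjusted p = 0.363). The smallest adjusted p of the list was 0.0771, for the cytosolic malate dehydrogenase gene Mdh1 (0.37 ± 0.12). Gpd2, the glycerophosphate dehydrogenase described as a target of metformin, had 94.3, 64.1 and 78.3 CPM without and 61.3, 48.0 and 61.9 CPM with metformin (-0.47 ± 0.22, adjusted p = 0.215), so all metformin values lay below all basal ones without passing the test. The coactivator gene Ppargc1a stayed within its spread (-0.15 ± 0.23, adjusted p = 0.761).

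Fasting genes of the FoxO type were not called in any of 16 cases by either tool (median -0.19, 3 with an unadjusted p below 0.05). Irs2, the insulin receptor substrate that FoxO1 induces, was at 9.97, 8.39 and 16.4 CPM without and 6.44, 6.82 and 5.67 CPM with metformin, without overlap (log2 fold change -0.88 ± 0.47, adjusted p = 0.281, edgeR). Igfbp1 was at 66.6, 79.6 and 44.0 CPM without and 101, 55.6 and 65.7 CPM with it (0.22 ± 0.51, adjusted p = 0.843). The pyruvate dehydrogenase kinase gene Pdk4 had the smallest p of the list and was at 134, 23.3 and 14.1 CPM without and 28.8, 13.6 and 10.6 CPM with metformin (-1.70 ± 0.70, adjusted p = 0.16), highest in the library with most muscle markers in each group. In glycolysis and glucose uptake 3 of 18 genes were called (16.7%, against 3.17% of all genes). Gapdh was higher, and Eno1 was lower, at means of 1.46 and 0.51 CPM beside its more abundant copy Gm5506. The hexokinase gene Hk2 fell from 10.1, 2.79 and 1.50 CPM to 1.68, 0.66 and 1.66 CPM (-1.84 ± 0.52, adjusted p = 0.0423). Hk2 is the muscle isoform of hexokinase, and the part of muscle in the changes of Pdk4 and Hk2 was not tested. Its groups overlapped, and its call was lost without basal library 1, without any 1 of the metformin libraries, without the length trend (adjusted p = 0.0937) and with the replicate block (adjusted p = 0.0862).

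In the lists of lipid genes 0% to 4.17% of members were called, against 3.17% of all genes. In fatty acid and triglyceride synthesis none of 22 genes was called by edgeR, 4 had an unadjusted p below 0.05 and DESeq2 called 1, the acyltransferase gene Agpat2 (edgeR 0.37 ± 0.11, adjusted p = 0.0629). Fasn, fatty acid synthase, was at 91.7, 155 and 173 CPM without and 150, 159 and 118 CPM with metformin (log2 fold change 0.03 ± 0.26, adjusted p = 0.97), and its activator gene Srebf1 at 100.1, 92.2 and 50.7 CPM without and 76.9, 116 and 65.03 CPM with it (0.08 ± 0.28, adjusted p = 0.895). Cholesterol synthesis and uptake showed a median of 0.44 with 23 of 24 values positive, and the median stayed 0.44 without the length trend. Only 1 member was called (4.17%) and 1 had an unadjusted p below 0.05. This was Acat2, the cytosolic acetoacetyl-CoA thiolase, at 34.0, 52.9 and 46.5 CPM without and 68.1, 79.1 and 51.0 CPM with metformin (0.57 ± 0.16, adjusted p = 0.0343). It shares 41.9% of its words, and its call was lost without the length trend and without basal library 1 or 3 or metformin library 1 or 2. The median of this list was 0.49 with metformin on chow and 0.72 on 16-week HFD.

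In fatty acid oxidation and ketogenesis 1 of 34 genes was called (2.94%, median 0.13). The peroxisomal thiolase gene Acaa1a rose from 224, 281 and 308 CPM to 347, 395 and 400 CPM (log2 fold change 0.49 ± 0.12, adjusted p = 0.0212, edgeR), and lost its call without the length trend (adjusted p = 0.0528) and without basal library 1 or metformin library 2 or 3. None of 17 genes of lipid droplets and PPARG-type targets was called by either tool, and 4 had an unadjusted p below 0.05. Pparg itself was at 5.95, 7.36 and 10.1 CPM without and 10.9, 15.8 and 9.35 CPM with metformin (0.62 ± 0.24, adjusted p = 0.135). Bile acid genes were not called in any of 21 cases by either tool, with 3 at an unadjusted p below 0.05. Cyp7a1, the rate-limiting enzyme of bile acid synthesis, ranged from 51.3 to 311 CPM without and from 124 to 382 CPM with metformin (0.58 ± 0.58, adjusted p = 0.595), and the bile acid importer gene Slc10a1 had the smallest p of the list (0.49 ± 0.21, adjusted p = 0.183).

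In the integrated stress response 1 of 23 genes was higher and 1 lower (8.7% called, median -0.12). The higher gene was the cystine transporter gene Slc7a11, which is also on the list of oxidative stress. It rose from 0.06, 0.20 and 0.06 CPM to 0.45, 0.33 and 1.12 CPM (log2 fold change 2.63 ± 0.73, adjusted p = 0.0387, edgeR), and its call was lost with the replicate block (adjusted p = 0.0627) and without basal library 1 or 3 or any 1 of the metformin libraries. With Mt2 it made 2 of 20 called genes on the oxidative stress list (10%). The secreted stress hormones of the liver were not called. Gdf15 was at 6.66, 5.09 and 3.21 CPM without and 8.45, 10.3 and 9.40 CPM with metformin, without overlap (0.91 ± 0.54, adjusted p = 0.336), and Fgf21 at 7.25, 8.08 and 17.6 CPM without and 10.7, 8.09 and 16.1 CPM with it (0.09 ± 0.57, adjusted p = 0.953). None of 19 genes of the unfolded protein response was called by either tool or had an unadjusted p below 0.05, with a median of -0.17 and 1 positive value, and Sel1l had the smallest p (-0.38 ± 0.22, adjusted p = 0.323).

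Heat shock protein genes had a median log2 fold change of -0.50 with 2 of 14 positive values, and none was called by edgeR. At an unadjusted p below 0.05 there were 6, all lower, and DESeq2 called 1, the small heat shock protein gene Cryab. Cryab was at 17.1, 4.74 and 2.82 CPM without and 4.36, 2.64 and 2.38 CPM with metformin (-1.40 ± 0.41, adjusted p = 0.0538 in edgeR). It was called without the length trend (adjusted p = 0.0361) and without basal library 2 or 3, and without basal library 1 its log2 fold change was -0.28, not past the threshold. Its order over the basal libraries was that of the summed muscle markers, while in metformin libraries 2 and 3 the order was reversed. The part of muscle in its change was not tested.

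For the remaining programs of the liver, the counts of calls stand beside the 3.17% called over all genes. In xenobiotic metabolism 1 of 30 genes was higher and 1 lower (6.67%), and these 2 cytochrome P450 genes, both female-biased, were also the 2 called among 18 female-biased genes. Cyp3a44 fell from 5.32, 4.68 and 4.12 CPM to 1.06, 0.66 and 0.45 CPM (log2 fold change -2.72 ± 0.69, adjusted p = 0.0232, edgeR), and Cyp3a41a rose from 0, 0.06 and 0 CPM to 0.90, 0.22 and 0.09 CPM (4.27 ± 1.23, adjusted p = 0.0462). Cyp3a41a shares 99.2% and Cyp3a44 41.4% of its words with other genes. Their calls were lost without basal library 1 or metformin library 1 or 2, that of Cyp3a44 also without metformin library 3 and that of Cyp3a41a without basal library 3, with the replicate block (adjusted p = 0.0677) and without the length trend (adjusted p = 0.0674). Cyp3a41a was also not called with no filter on low counts or by DESeq2 (adjusted p = 0.0521). Of 22 male-biased genes 1 was called, Mup10. No call was made by edgeR among 32 interferon-stimulated, 26 acute phase, 21 clock, 23 immediate early and 25 cell cycle genes. Unadjusted p values below 0.05 were found for 6, 6, 4, 5 and 2 of them, and DESeq2 called the antiviral gene Bst2 and the immediate early genes Klf10 and Myc.

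The members of these lists with the smallest p were as follows. The interferon-stimulated gene Bst2 was at 78.7, 70.5 and 91.1 CPM without and 106, 101 and 153 CPM with metformin (log2 fold change 0.58 ± 0.18, adjusted p = 0.0629, edgeR). Serpina3m, a serine protease inhibitor of the acute phase, had 0.61 ± 0.20 (adjusted p = 0.0772), the clock repressor gene Bhlhe41 -1.19 ± 0.48 (adjusted p = 0.153) and the replication helicase gene Mcm4 -0.51 ± 0.23 (adjusted p = 0.19). Myc was at 2.37, 2.76 and 49.3 CPM without and 4.36, 3.03 and 2.38 CPM with metformin (-2.49 ± 0.74, adjusted p = 0.0536), so basal library 3 alone was high. Without that library its log2 fold change was 0.34 (adjusted p = 0.804), and edgeR called Myc without basal library 1 (adjusted p = 0.021) or 2 (adjusted p = 0.0189). Immediate early genes are induced within minutes, and Egr1 varied within both groups, at 41.5, 39.4 and 112 CPM without and 69.9, 19.4 and 63.2 CPM with metformin (-0.34 ± 0.69, adjusted p = 0.824). The clock repressor gene Bhlhe40 was at 124, 131 and 95.2 CPM without and 63.1, 90.1 and 91.2 CPM with metformin (-0.52 ± 0.24, adjusted p = 0.208). Rgs4, a regulator of G protein signalling named in the title of the series, was at 2.07, 2.67 and 2.38 CPM without and 1.90, 2.81 and 1.75 CPM with metformin (-0.14 ± 0.40, adjusted p = 0.875).

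**Figure D3:**
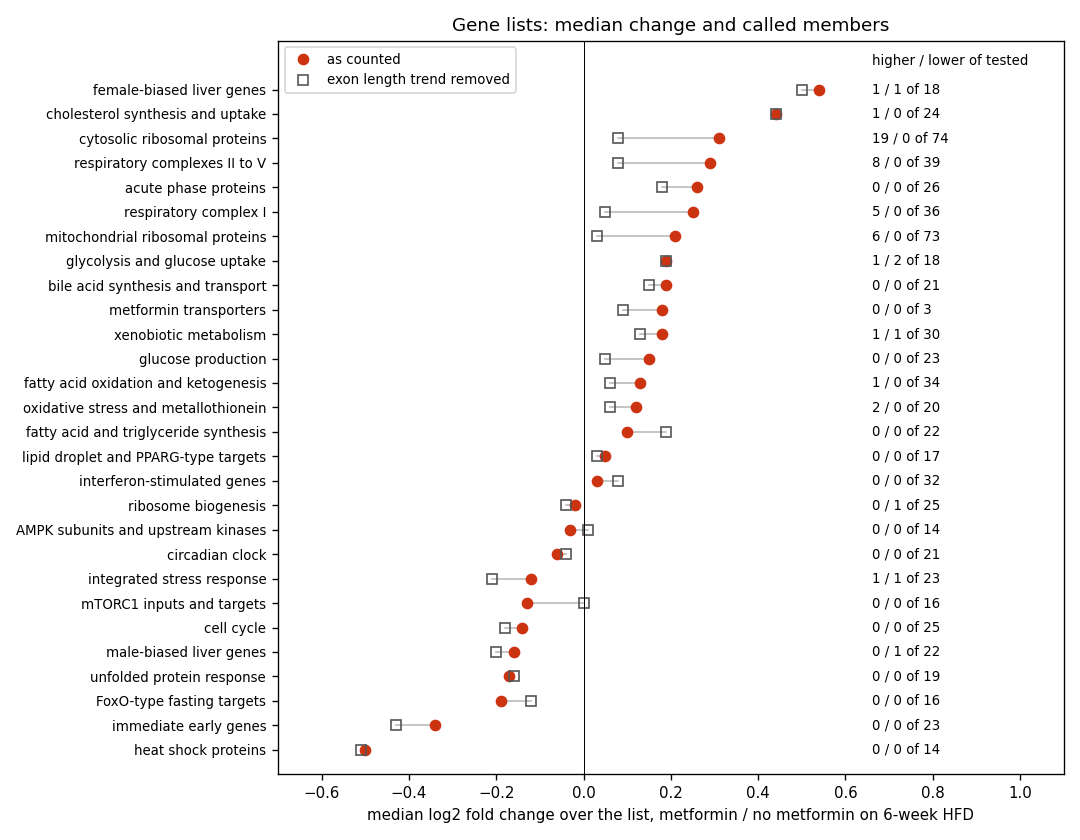
Median log2 fold change of metformin over no metformin on 6-week HFD for the tested members of 28 gene lists, as counted (filled) and after removal of the exon length trend (open), with the numbers of members called higher and lower at the right. The medians of the ribosome and respiratory chain lists move from 0.21 to 0.31 to between 0.03 and 0.08, and that of cholesterol synthesis and uptake stays at 0.44.

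Of the 175 lower genes, 156 had under 5% shared words, as did 11988 of all 14067 genes (85.2%). Tob1, which joins the mRNA deadenylase complex and restrains proliferation, fell from 156, 164 and 147 CPM to 89.4, 82.6 and 82.2 CPM (log2 fold change -0.88 ± 0.20, adjusted p = 0.0092, edgeR), and lost its call only without metformin library 2 among the fits without 1 library. On chow Tob1 was at 86.1 ± 4.54 CPM without and 86.3 ± 7.77 CPM with metformin, and on 16-week HFD at 94.1 ± 13.7 and 81.1 ± 10.2 CPM, against 156 ± 8.84 and 84.7 ± 4.03 CPM on 6-week HFD (SD, n = 3 each). The response of Tob1 on 6-week HFD did not pass the test of its difference from that on chow (-0.88 ± 0.28, adjusted p = 0.462) or on 16-week HFD (-0.67 ± 0.28, adjusted p = 0.291). Cebpb, a transcription factor of fasting and the acute phase, fell from 87.0, 66.2 and 54.3 CPM to 31.3, 32.2 and 35.5 CPM (-1.07 ± 0.27, adjusted p = 0.0205), and its call was lost without basal library 1 or any 1 of the metformin libraries. In all diets together the 9 metformin libraries held 22.9 to 37.6 CPM of Cebpb and the 36 others 45.8 to 135 CPM, without overlap. Foxa1, a pioneer factor of the liver, fell from 21.1, 19.7 and 51.6 CPM to 16.6, 15.0 and 14.2 CPM (-1.01 ± 0.24, adjusted p = 0.0157), and its call was lost without basal library 3 or metformin library 2 or 3.

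Further lower genes without copies were the zinc finger gene Zfp46 (-0.84 ± 0.15, adjusted p = 0.00109, edgeR), the mitochondrial membrane protein gene Tmem65 (-0.87 ± 0.17), the RhoGAP gene Arhgap23 (-0.88 ± 0.18), the cyclin gene Ccnd2 (-0.96 ± 0.27), the angiomotin-like gene Amotl1 (-0.99 ± 0.24) and the corepressor gene Bcorl1 (-0.83 ± 0.19). Only the call of Zfp46 held in all 6 fits without 1 library. That of Ccnd2 was lost in all 6, with the replicate block (adjusted p = 0.055) and without the length trend, as was that of Amotl1 without the trend. Tmem65 lost its call without basal library 1, Arhgap23 without metformin library 1, Amotl1 without basal library 1 or metformin library 1 or 3, and Bcorl1 without basal library 1 or metformin library 2 or 3. Gys1, the glycogen synthase of muscle, fell from 14.6, 5.03 and 3.58 CPM to 2.80, 2.81 and 2.88 CPM (-1.45 ± 0.31, adjusted p = 0.00566). Gys1 lost its call without basal library 1, the library with 2325 CPM of muscle markers, and the part of muscle was not tested. Des, the desmin gene of stellate and muscle cells, fell from 64.9, 22.6 and 5.81 CPM to 9.07, 6.00 and 6.48 CPM (-2.12 ± 0.58, adjusted p = 0.0351). Des lost its call without basal library 1 or any 1 metformin library and with the replicate block (adjusted p = 0.112). With basal libraries 1 and 2 left out the log2 fold changes of Des and Actn3 were 0.29 and 1.29. The calls of Actn3 were lost in the same fits without 1 library and with the block (adjusted p = 0.123), and DESeq2 did not call it (adjusted p = 0.0576). A430078G23Rik, an uncharacterised gene with 3.9% shared words, fell from 17.1, 12.3 and 12.2 CPM to 4.20, 5.50 and 4.36 CPM (-1.56 ± 0.27, adjusted p = 0.000452), and its call held in all 6 fits without 1 library.

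A set of 71 genes, 55 higher and 16 lower, was called in every one of these settings: the reported fit, the 6 fits without 1 library, the fits without the length trend and with the replicate block, alone and together, and DESeq2. Of these, 33 had at least 20% shared words, and 22 had under 5% and no exon shared with another gene. Over all 14067 genes tested these numbers were 763 and 10637, so genes with shared words made up a larger share of the 71. The following 6 were picked from the 22 after their values were seen, and none of these 6 was called in every setting run. Sdf2, a protein of the endoplasmic reticulum, rose from 22.1, 26.8 and 25.8 CPM to 37.0, 34.7 and 39.5 CPM (log2 fold change 0.58 ± 0.09, adjusted p = 0.000238, edgeR). Atox1, the copper chaperone of the secretory pathway, rose from 56.3, 64.9 and 64.98 CPM to 103, 103 and 93.5 CPM (0.69 ± 0.11, adjusted p = 0.000257). Snapc5, a subunit of the complex that starts small nuclear RNA transcription, rose from 10.6, 10.9 and 10.2 CPM to 18.9, 19.6 and 17.1 CPM (0.81 ± 0.14, adjusted p = 0.000663). S100a1, a calcium-binding protein, rose from 62.0, 66.8 and 57.2 CPM to 96.1, 102 and 91.2 CPM (0.64 ± 0.13, adjusted p = 0.00435). The related corepressor genes Mier1 and Mier3 fell, Mier1 from 43.0, 43.5 and 46.9 CPM to 28.1, 32.4 and 31.8 CPM (-0.53 ± 0.11, adjusted p = 0.00481) and Mier3 from 22.2, 19.9 and 21.7 CPM to 15.4, 14.1 and 14.7 CPM (-0.53 ± 0.10, adjusted p = 0.00246). In all 6 of these genes the groups did not overlap, as in 32.6% of all genes tested. With the length trend removed, the log2 fold changes of Sdf2, Atox1, Snapc5 and S100a1 were 0.39, 0.41, 0.56 and 0.38. Those of Mier1 and Mier3 were then -0.40 and -0.38.

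**Figure D4:**
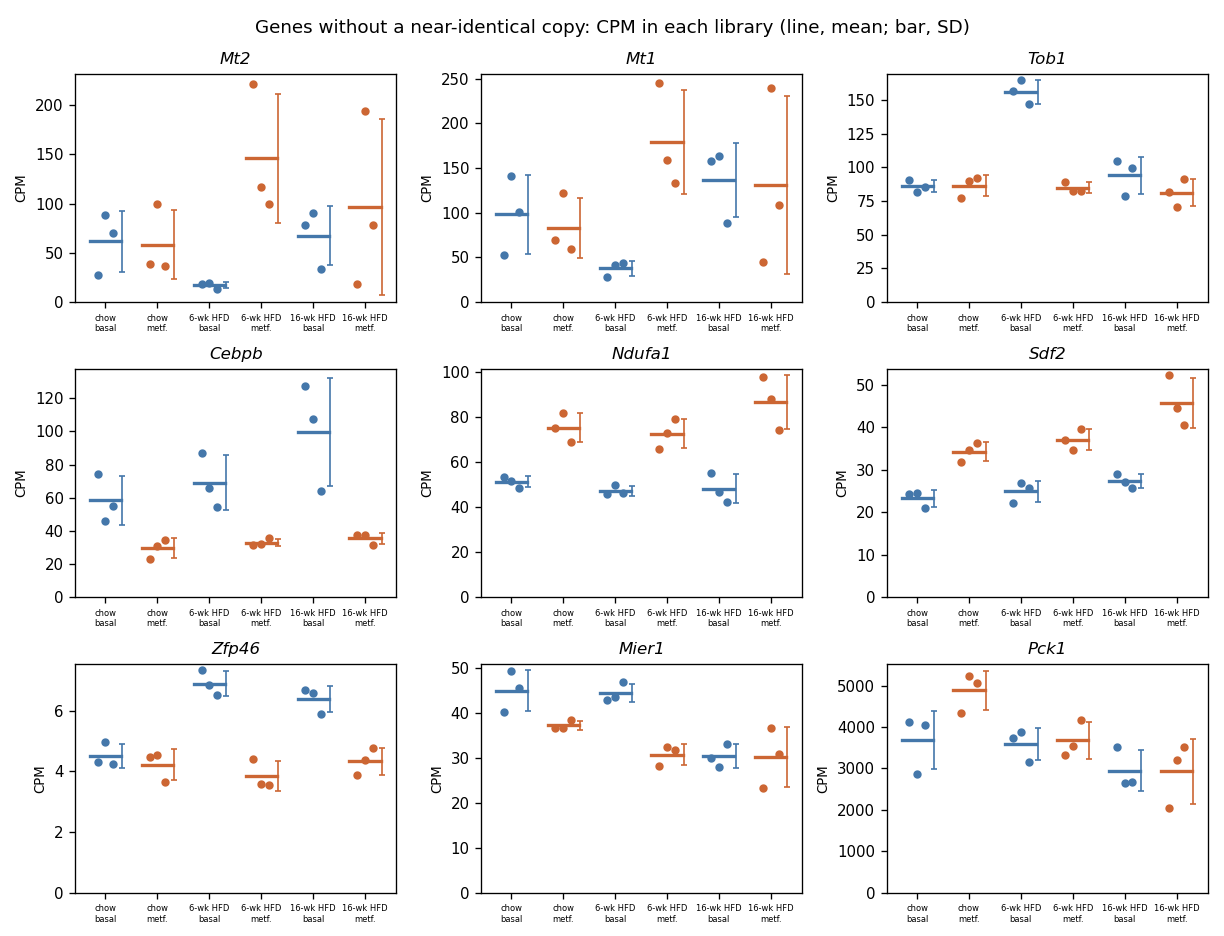
CPM of 9 genes without a near-identical copy in each library of the 6 basal and metformin groups (points, libraries; lines, means; bars, SD of 3). On 6-week HFD Mt2, Mt1, Ndufa1 and Sdf2 are higher and Tob1, Cebpb, Zfp46 and Mier1 lower in all 3 metformin libraries than in all 3 basal ones, and Pck1 overlaps.

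The other diets were set beside 6-week HFD with no library in common. With metformin 273 genes (1.94%) were called on chow and 3992 (28.4%) on 16-week HFD. Of the 446 genes called on 6-week HFD, 96 were also called on chow, 95 in the same direction, which is 21.5% of the first set and 35.2% of the second. On 16-week HFD 283 of the 446 were also called, 282 in the same direction, which is 63.5% and 7.09% of the sets. The same 81 genes were called in the same direction on all 3 diets, and 149 of the 446 were called on 6-week HFD alone among the 3. A call on one diet and none on another is not a difference between them.

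The difference between diets was tested for each gene. Against chow, 6 of 14067 genes (0.0427%) had a different metformin response on 6-week HFD, 1 more positive and 5 more negative. Against 16-week HFD there were 19 (0.135%), 10 more positive and 9 more negative. Pcf11, a factor of transcription termination, was at 33.6, 33.9 and 34.9 CPM without and 23.9, 24.5 and 24.4 CPM with metformin on 6-week HFD (log2 fold change -0.49 ± 0.12), and at 25.0 ± 1.86 and 32.4 ± 3.97 CPM on chow (0.37 ± 0.12). The difference was -0.86 ± 0.16 (adjusted p = 0.044, edgeR). Sap130, a subunit of the Sin3 corepressor complex, had -0.31 ± 0.12 on 6-week HFD and 0.57 ± 0.12 on chow, a difference of -0.88 ± 0.17 (adjusted p = 0.044). Fchsd2, a gene of endocytosis, had -0.54 ± 0.15 and 0.54 ± 0.15, a difference of -1.08 ± 0.22, and 1810013L24Rik -0.41 ± 0.11 and 0.40 ± 0.11, a difference of -0.81 ± 0.16 (adjusted p = 0.044 for both). The copy gene Gm12070 had 0.95 ± 0.11 and 0.18 ± 0.11, a difference of 0.76 ± 0.15 (adjusted p = 0.044). Eno1, at a mean under 5 CPM, made the sixth. Within 6-week HFD, Pcf11, Fchsd2 and 1810013L24Rik were called lower, and these calls were lost after removal of the length trend (adjusted p = 0.123, 0.123 and 0.146). That of 1810013L24Rik was also lost with the replicate block (adjusted p = 0.0508) and in each of the 6 fits without 1 library, and that of Fchsd2 in 5 of these 6. Between 0 and 5 genes were called in the fits without 1 library, 1 with the replicate block and 0 in a fit of the 4 groups alone, so none of the 6 stood in every setting.

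Against 16-week HFD, Tmed5, a cargo receptor of the early secretory pathway, had the smallest adjusted p together with Eno1. It was at 192, 206 and 187 CPM without and 140, 126 and 160 CPM with metformin on 6-week HFD (log2 fold change -0.46 ± 0.14), and at 87.0 ± 16.4 and 144 ± 6.99 CPM on 16-week HFD (SD, n = 3 each; 0.72 ± 0.14). The difference was -1.18 ± 0.20 (adjusted p = 0.00732, edgeR). Gt(ROSA)26Sor, a noncoding gene, was at 9.34 ± 0.38 and 6.09 ± 0.61 CPM on 6-week HFD and 4.08 ± 1.50 and 7.84 ± 1.42 CPM on 16-week HFD (difference -1.56 ± 0.28, adjusted p = 0.0114). C4a, a complement gene with 38.3% shared words, was at 61.1 ± 8.75 and 104 ± 23.1 CPM on 6-week HFD and 188 ± 64.1 and 86.7 ± 20.7 CPM on 16-week HFD (difference 1.88 ± 0.35, adjusted p = 0.0203). Kcnq1ot1, a long noncoding RNA of an imprinted locus with an exon length of 83437 bases, was at 29.9 ± 1.98 and 30.5 ± 1.77 CPM on 6-week HFD and 66.2 ± 11.5 and 21.96 ± 7.66 CPM on 16-week HFD (difference 1.62 ± 0.31, adjusted p = 0.0231). Kcnq1ot1 overlaps Kcnq1 on the other strand. Rdh18-ps, A130077B15Rik, Sbk1, Kdm1a and 2810008M24Rik had differences of 1.39, 0.70, 1.17, -0.58 and -0.66 on the log2 scale. The count was 0 to 47 in the fits without 1 library, 0 without metformin library 2 of the 6-week HFD group and 0 in a fit of the 4 groups alone, and 30 with the replicate block. The Spearman correlation with exon length was -0.61 to -0.26 in the 16-week metformin libraries, and with the length trend removed from all libraries 40 genes were called.

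**Figure D5:**
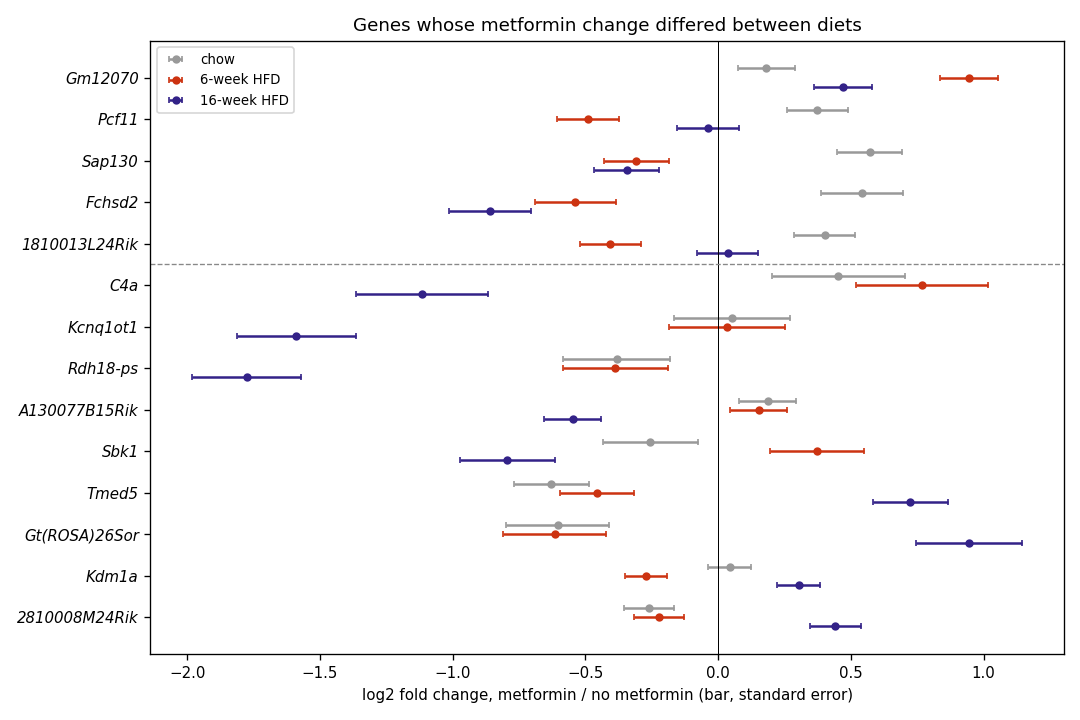
Log2 fold change of metformin over no metformin (bars, standard error) on each diet for 14 genes whose response on 6-week HFD differed from that on chow (above the dashed line) or on 16-week HFD (below it). On 6-week HFD Pcf11, Sap130, Fchsd2 and 1810013L24Rik are negative and on chow positive, and Tmed5 and Gt(ROSA)26Sor are negative on 6-week HFD and positive on 16-week HFD.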

How the data were processed

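Liver RNA was sequenced from 45 libraries in 14 groups, and 6 libraries are compared here. Per the labels' protocols, polyadenylated RNA was made into unstranded TruSeq libraries and read in pairs of 40 to 50 bases. The authors deposited raw counts per gene. TopHat 1.4.0, HTSeq, DESeq2 1.0.18 and the build mm9 are named in the submitters' processing notes, and how reads that fit several places were counted is not given in the sources used here. Libraries were grouped by their labels.

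Counts were fitted over all 45 libraries with 1 coefficient per group (R 4.3.3, edgeR 4.0.16, quasi-likelihood test, TMM scaling, filterByExpr with a minimum count of 10, Benjamini-Hochberg adjustment over 14067 genes, calls at a false discovery rate below 0.05). Values after ± beside log2 fold changes are standard errors, taken as the size of the change over the square root of the test's F. Levels are CPM. Exon lengths come from the deposited gene models, and 40-base words shared between genes from GENCODE M21 transcripts, matched by symbol for 98% of genes. The scripts were tested on simulated data. Alternatives were DESeq2 1.42.0, RLE scaling, no filter, trends with exon length or GC removed (a spline with 5 degrees of freedom), a replicate block, a fit of the groups compared alone, and each library left out. Fits to genes without shared sequence, and without basal libraries 1 and 2 or with basal library 1 out and the length trend removed, were added after the data were seen. Same-numbered basal and metformin libraries on 6-week HFD deviated together from their group means (r = 0.41, 0.16 and 0.30). On chow the same r was -0.04, -0.2 and 0.29, and on 16-week HFD it was 0.24, 0.15 and 0.12. The labels state no pairing. The reported fit has no block, and the replicate block is given as an alternative only.

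Genes are named by these rules: the 15 largest called changes in each direction at a mean of 5 CPM or more with groups that did not overlap; up to 3 called members of a list in each direction, or the member with the smallest p; a set of genes of metformin action and of the study; and up to 5 genes in each direction of each test between diets. Some genes these rules choose are not reported here. The members and lists were chosen with earlier results of these data known. Lists are described by counts and medians, with no set test. Counts carry no molecular identifiers.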

Additional observations from a re-analysis of the deposited data

Results flagged for a closer look

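The metformin response on 6-week HFD differed from that on another diet, by a test of the difference itself, for 14 genes named here (edgeR quasi-likelihood test with Benjamini-Hochberg adjustment). Against chow the log2 differences were 0.763 for Gm12070, -0.864 for Pcf11, -0.879 for Sap130, -1.08 for Fchsd2 and -0.808 for 1810013L24Rik. Against 16-week HFD they were 1.88 for C4a, 1.62 for Kcnq1ot1, 1.39 for Rdh18-ps, 0.701 for A130077B15Rik and 1.17 for Sbk1. They were -1.18 for Tmed5, -1.56 for Gt(ROSA)26Sor, -0.576 for Kdm1a and -0.663 for 2810008M24Rik. Each was tested with 3 libraries in each of 4 groups, with the spread estimated over all 45 libraries. A fit of those 4 groups alone called none of the 14. Tmed5 and Gt(ROSA)26Sor kept their calls in every other setting run except the fit without metformin library 2 of the 6-week HFD group.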

How the results depend on the processing

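The number of genes called with metformin on 6-week HFD was 446. It was 437 with RLE scaling, 329 with no filter, 215 with the exon length trend removed, 243 with length and GC trends removed, 751 in a fit of these groups alone and 693 in DESeq2. It ranged from 138 to 412 in the fits without 1 library. The settings added later gave 163 (genes without shared sequence), 23 (the same with the length trend removed), 83 (basal library 1 out, length trend removed) and 41 (basal libraries 1 and 2 out). With the replicate block it was 385, and with block and length removal 185. The block moved no count of a comparison on this diet by over 1.5 times and the calls within this diet that it ended among genes chosen by the rules are given beside each gene.

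The Spearman correlation with exon length was -0.46. It was -0.27 with no filter, -0.02 in each fit with a length trend removed and -0.01 in that on genes without shared sequence. It was -0.40 without basal libraries 1 and 2, and -0.45 to -0.38 without 1 library. The count of list members called was 50. It was 32 with no filter, 21 and 25 with length and with length and GC removed, 19 with block and length removal, and 100 in a fit of the groups alone. It was 15 to 35 without 1 library, and 9, 1, 9 and 4 in the settings added later, in the order above.

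Against chow the count of 6 became 1 with no filter, 1 with the replicate block, 0 in the groups alone, 15 in DESeq2 and 0 to 5 without 1 library. Against 16-week HFD the count of 19 became 10 with no filter, 40 with length removed, 11 with length and GC removed, 30 with the replicate block, 46 with block and length removal, 0 in the groups alone, 89 in DESeq2 and 0 to 47 without 1 library. Smaller counts where a library is left out rest on fewer samples; for the other settings the cause was not tested.

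For single named genes, the alternatives chosen first kept the side of the threshold and the direction in 1257 cases, lost the call in 319, gained it in 16 and reversed the direction of a called gene in 0. Those added later reversed 2, Actn3 (1.29) and Des (0.29), without basal libraries 1 and 2. On 6-week HFD no filter ended the calls of Acat2, Cyp3a41a, Hk2, Mrpl27 and Slc7a11. The fit of the groups alone ended those of Acaa1a, Acat2, Actn3, Amotl1, Des, Eno1, Foxa1, Gys1, Hk2, Ndufb2 and Tmem65. Removal of length and GC together ended that of Rpl31, which length alone did not. The metformin libraries, at 19.2 to 23.7 M reads, limit genes of low counts.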

Other observations

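Across the whole study, 125 of 14067 genes separated the 9 metformin libraries of the 3 diets from the 36 others without overlap, 114 above and 11 below. Of these, 81 were among the 446 genes called on 6-week HFD, and 22 had at least 20% shared words. The metformin libraries of the 3 diets also lay at the low end of the correlation with exon length, and how much of the separation goes with it was not tested.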
